A study of Mus musculus with 9 samples.

Results

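Liver RNA of ApoE-/- mice that had eaten a high-fat diet and received PBS was compared, gene by gene, with that of ApoE-/- mice on a normal diet. The comparison takes the 3 libraries labelled HFD + PBS (replicates 3, 4 and 6) and the 3 labelled normal diet (replicates 4, 5 and 6), which are 6 of the 9 libraries of the series, and every gene that passed a filter on low counts. Each library was made from the RNA of 1 liver, so p-values measure the spread between these animals. All 6 mice were of the C57BL/6 background, were described as male and carried the Apoe knockout in every cell, on both diets. The high-fat diet held 4700 kcal/kg, of which fat gave 41%, carbohydrate 43% and protein 17%. It began at 4 weeks of age, lasted 20 weeks and was followed by 1 week of chow. PBS went into the peritoneum at 25, 26 and 27 weeks, and these mice were killed at 29 weeks. The labels do not say what they ate after 25 weeks, nor at what age the normal diet mice died and whether they were injected, so diet, injection and age at death cannot be told apart. The livers sequenced were picked within each group by triglyceride values and by Oil Red O, a stain for neutral lipid.

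The liver takes up fatty acids, burns them in mitochondria and peroxisomes under the control of the nuclear receptor PPAR-alpha, stores them in lipid droplets and sends them out in lipoproteins. It also makes cholesterol through the mevalonate pathway, which the transcription factor SREBP-2 drives when sterols run low, and turns cholesterol into bile acids. Without apolipoprotein E, remnant lipoproteins are cleared slowly and cholesterol builds up in plasma, and livers loaded with lipid commonly take in macrophages and neutrophils.

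Apoe, the gene targeted in these mice, had 225, 1141 and 785 counts in normal diet replicates 4, 5 and 6 and 884, 737 and 711 counts in HFD + PBS replicates 3, 4 and 6, and the groups overlapped. The libraries labelled normal diet replicate 5 and HFD + PBS replicate 6 went against the label male. They held 17065 and 10970 counts of Xist, the RNA of the inactive X chromosome, and 0 counts of the genes Uty, Kdm5d, Ddx3y and Eif2s3y on the Y chromosome. The other 4 libraries held 0 to 4 Xist counts and 2837 to 3222 Y-linked counts. Each group therefore holds 1 such library, and the count of genes called, the genes called and several list medians are also given without the pair. Total counts ran from 16873518 to 18538463 per library. Levels are given below as CPM, counts scaled to the library total times its TMM factor, always for normal diet replicates 4, 5 and 6 and then for HFD + PBS replicates 3, 4 and 6, and a log2 fold change is HFD + PBS minus normal diet. On the first principal component of log2 CPM, which held 48.5% of the variance, the normal diet libraries lay at -44.4, -14.1 and -69.2 and the HFD + PBS libraries at 60.8, 31.6 and 35.4. The second, with 18.6%, set HFD + PBS replicate 3 at 44.4 apart from replicate 4 at -52.8. All 13 hepatocyte markers were detected, with a summed level of 107800 to 124300 CPM on the normal diet and 69870 to 151300 CPM after the high-fat diet.

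edgeR's quasi-likelihood test, adjusted with Benjamini-Hochberg and called at an adjusted p under 0.05, called 184 of 14437 genes, or 1.27%. Of these, 92 were higher after the high-fat diet and 92 were lower, 0.637% each way. The groups did not overlap in any of the 184. That was not particular to called genes, since 4051 of all genes tested (28.1%) had no overlap, 13.8% on the higher side and 14.2% on the lower side. The lowest adjusted p was 0.0175, and 3242 genes had an unadjusted p under 0.05. The count rests on few libraries. Without normal diet replicate 4, edgeR called 0 genes, with 2337 at an unadjusted p under 0.05, and without normal diet replicate 6 it called Cyp8b1 alone. Without HFD + PBS replicate 4 it called 575. Left without both libraries that lacked Y-linked reads, it called 27 genes (0.186%), and 11 of the 184 were among them. With a term for Y-linked reads it called 5, Cyp8b1, Hykk, Mup18 and Hectd2os lower and Il1r2 higher. With all 9 libraries of the series sharing the spread it called 0, with 3076 at an unadjusted p under 0.05, while DESeq2 on the 6 libraries called 1570. No gene of the 184 changed sign under any of the 18 alternatives. With no overlap between their groups, leaving libraries out could hardly reverse a sign, so this is no measure of stability.

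**Figure D1:**
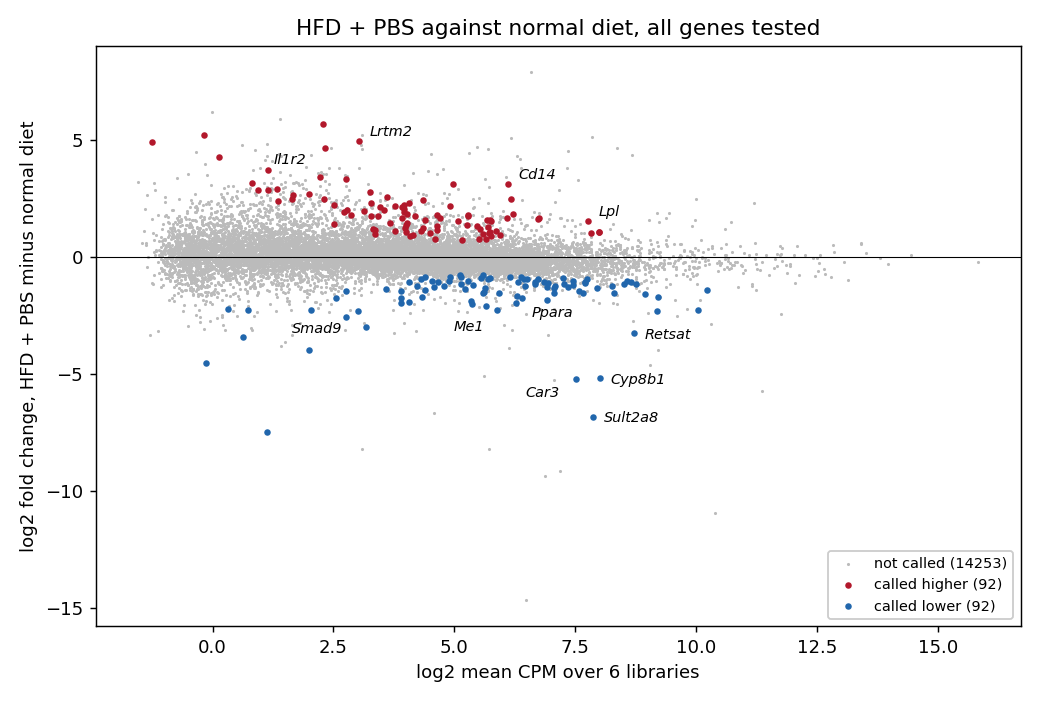
Each point is 1 of the 14437 genes tested, with the log2 of its mean CPM over 6 libraries on the horizontal axis and its log2 fold change (HFD + PBS minus normal diet) on the vertical axis. Coloured points are the 92 genes called higher and the 92 called lower, and the other 14253 genes are grey. Some of the genes described are labelled.

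**Figure D2:**
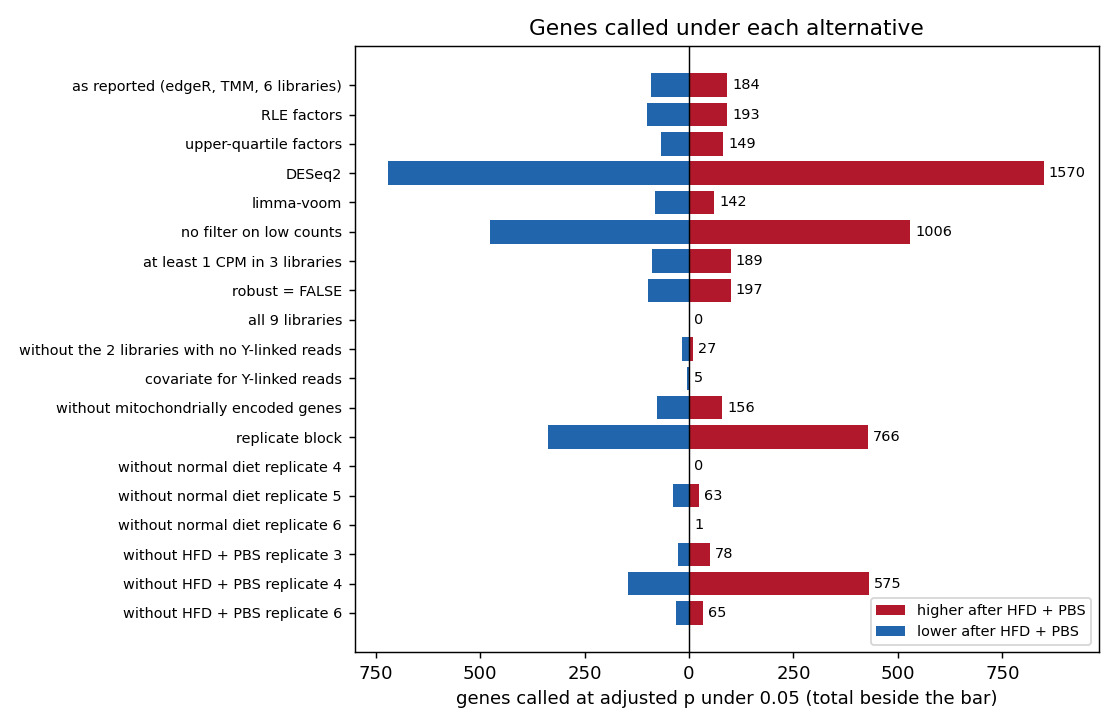
Bars give the number of genes called at an adjusted p under 0.05, starting from 0, with higher genes to the right and lower genes to the left, for the test as reported (184) and for each of the 18 alternatives. The count ran from 0 to 1570.

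The gene with the smallest p acts in bile acid synthesis. Cyp8b1, the sterol 12-alpha-hydroxylase that directs the pathway to cholic acid, stood at 422, 352 and 727 CPM on the normal diet and at 9.72, 18.7 and 13.6 CPM after the high-fat diet. Every HFD + PBS library lay far under every normal diet library, a 35.7-fold lower level (log2 fold change -5.16, SE 0.39, edgeR adjusted p = 0.0175). The gene (ENSMUSG00000050445, chromosome 9, 121914356 to 121916305, mm10) was called in 16 of 18 alternatives. Cyp7a1, whose product takes the first step from cholesterol to bile acids, did not pass the test, at 4.34, 24.1 and 40.2 CPM against 62.5, 26.8 and 30 CPM, and its groups overlapped. Among 35 tested uptake and export transporters of hepatocytes, 5 fell and 0 rose, and 18 lay lower without overlap against 3 higher, with a median log2 fold change of -0.43. The median over all genes tested was 0.02. Abcc3, which exports bile acid and bilirubin conjugates to blood, fell from 516, 536 and 472 CPM to 248, 237 and 262 CPM (log2 fold change -1.03, SE 0.17, edgeR adjusted p = 0.0419). Abca8a (chromosome 11, 110025634 to 110095978, mm10), a lipid transporter of the ATP-binding cassette family, fell from 146, 107 and 134 to 40.9, 34.1 and 40.4 CPM (3.36-fold, edgeR adjusted p = 0.0286). Its neighbour Abca8b fell 2.17-fold, from 166, 137 and 112 to 58.4, 73 and 60.1 CPM. The 2 genes are close relatives side by side on chromosome 11, and reads that fit both could be counted for either. Abcc6, which releases ATP from hepatocytes and so keeps soft tissue from calcifying, fell by 0.90 on the log2 scale (SE 0.16), and Slc27a2, which takes up very long-chain fatty acids and activates them, by 1.39 (SE 0.26).

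Genes of fatty acid oxidation were lower as a group. All 21 mitochondrial beta-oxidation genes tested had negative fold changes, 18 of them without overlap, and 3 passed the test. Their median log2 fold change was -0.83. Of 20 peroxisomal oxidation genes, 17 were negative, 11 had no overlap on the lower side, 0 on the higher side, and 1 passed, with a median of -0.89. Ppara itself, the receptor that drives these genes, fell from 107, 155 and 97.2 CPM to 40.5, 31.2 and 43.8 CPM (log2 fold change -1.63, SE 0.22, edgeR adjusted p = 0.0304), and normal diet replicate 5 was the highest of its group. Both subunits of the trifunctional protein, which carries out the last steps for long chains, fell side by side. Hadha went from 568, 422 and 508 to 203, 207 and 269.7 CPM (log2 fold change -1.14, SE 0.20) and Hadhb from 238, 206 and 258 to 105, 103 and 137 CPM (log2 fold change -1.02, SE 0.18). Eci1 and Ech1 are isomerases that let unsaturated fatty acids enter the spiral, and they fell 2.34-fold and 2.38-fold. In Hadha, Eci1 and Ech1, HFD + PBS replicate 6 was the highest of the 3 HFD + PBS libraries and came nearest to the normal diet.

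Genes around the oxidation pathway lay lower too. Of 6 ketone body genes, 5 were lower without overlap and 0 passed the test. Their median log2 fold change was -1.05. Of 14 tested Cyp4 genes, whose products hydroxylate fatty acids at the far end of the chain, 9 lay lower without overlap and 2 higher, with a median of -1.18, and Cyp4f17 fell 2.55-fold, from 19, 15.7 and 17.3 CPM to 5.25, 7.32 and 7.83 CPM. Of 16 peroxisome biogenesis genes, 14 were negative, 5 without overlap and 0 called, with Pex11a, which multiplies peroxisomes, at 124, 67.5 and 157 CPM against 24, 28.9 and 55 CPM. Fgf21, the fasting hormone under PPAR-alpha, was measured at 7.41, 5.95 and 3.66 CPM and at 0.228, 0 and 1.46 CPM, without overlap and without passing the test (edgeR adjusted p = 0.12). Plin2, which coats lipid droplets, stood lower in all 3 HFD + PBS libraries, at 1312, 741 and 743 CPM against 267, 139 and 463 CPM, and did not pass either (edgeR adjusted p = 0.0972).

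With the 2 libraries that lacked Y-linked reads left out, the groups held 2 libraries each. The 27 genes that edgeR then called included the PPAR-alpha targets Cyp4a14 (log2 fold change -6.43), Acot1 (-5.09), Pdk4 (-2.90), Slc22a5 (-2.46) and Pex11a (-2.42), all lower. Retsat, Mgll, Fitm2, Me1, Ces1e and Cyp8b1, which the full test also called, were lower again. On the higher side were the sterol genes Mvd (2.79), Sqle (2.44), Idi1 (2.34), Mvk (2.25), Msmo1 (2.18) and Nsdhl (2.07). Those that the full test did not call were picked out here after their values were seen. Ppara, Abca8a and Il1r2 kept their direction without passing the test, with log2 fold changes of -1.52, -1.91 and 4.68 (edgeR adjusted p = 0.0794, 0.0533 and 0.0533). List medians in these 4 libraries were -1.03 for mitochondrial and -1.15 for peroxisomal oxidation, 2.25 for the mevalonate genes and 4.14 for neutrophil markers.

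Enzymes that store, cut or remodel lipid were also among the lower genes. Mgll, the lipase that finishes triglyceride breakdown, fell from 186, 189 and 191 CPM to 42.5, 42 and 76.4 CPM (3.52-fold, edgeR adjusted p = 0.0304). The 3 normal diet livers were within a few CPM of each other. Fitm2, an endoplasmic reticulum protein needed for lipid droplets to form, fell from 103, 72.7 and 95.1 to 26, 30.1 and 37.9 CPM (2.88-fold). Retsat, which saturates retinol, fell from 905, 476 and 882 CPM to 57.2, 43.9 and 138 CPM (log2 fold change -3.24, SE 0.50, edgeR adjusted p = 0.0419). Of 12 carboxylesterases tested, which hydrolyse neutral lipids and drugs, 11 were negative and 2 fell. Ces1e went from 76, 57.2 and 63.8 to 13.2, 14.4 and 21.2 CPM and Ces3a from 907, 473 and 1508 to 218, 206 and 168 CPM. Carboxylesterase genes lie in clusters of close copies, so their counts may be shared among them. Ephx2, which opens epoxides of fatty acids, fell from 954, 592 and 1174 to 269.8, 218 and 352 CPM (3.24-fold).

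Fatty acid synthesis did not move as one group. Of 19 genes of synthesis and desaturation, 2 fell and 0 rose, and 4 lay higher and 5 lower without overlap. Me1, the malic enzyme that supplies NADPH for synthesis, fell from 96.4, 71.5 and 124 CPM to 16.8, 18.8 and 26.1 CPM (log2 fold change -2.24, SE 0.25, edgeR adjusted p = 0.0299). Elovl2, which elongates polyunsaturated fatty acids, fell from 662, 886 and 666 to 241, 234 and 272 CPM (log2 fold change -1.57, SE 0.20, edgeR adjusted p = 0.0304). In the opposite direction stood Scd1, the delta-9 desaturase, at 916, 325 and 1102 CPM against 3445, 3801 and 4536 CPM, without overlap, but it did not pass the test (edgeR adjusted p = 0.0512). Fasn, the fatty acid synthase, was at 103, 117 and 90.1 CPM against 409, 284 and 151 CPM (edgeR adjusted p = 0.0743), with HFD + PBS replicate 6 the lowest of its group. The pentose phosphate pathway, another source of NADPH, had 5 of 8 genes higher without overlap, 0 called and a median of 0.70, and G6pdx, its first enzyme, was measured at 15, 14 and 11.3 CPM and 74.3, 25.5 and 41.3 CPM. Pdp2, a phosphatase that activates pyruvate dehydrogenase, was the 1 gene to fall among 27 of the citric acid cycle and its entry, from 48, 50.5 and 62.6 to 20.1, 15.4 and 27.5 CPM.

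Smad9, which carries bone morphogenetic protein signals to the nucleus, fell from 9.39, 9.26 and 16 CPM to 2.42, 1.98 and 1.46 CPM (log2 fold change -2.56, SE 0.33, edgeR adjusted p = 0.0301). Inhbc, an activin subunit secreted by the liver, fell from 88.9, 61 and 65.3 to 21.5, 21.6 and 31.9 CPM. These were the 2 called among 41 genes of BMP, TGF-beta and activin signalling, whose median was 0.02. Hamp, the iron hormone that BMP signals induce, overlapped between the groups at 119.7, 268 and 326 CPM and 53.7, 321 and 125 CPM. Ghr, the growth hormone receptor, fell from 418, 378 and 493 to 171, 184 and 203 CPM (2.31-fold, edgeR adjusted p = 0.0373). Its target Igf1 stood at 515, 473 and 613 CPM and 391, 619.9 and 524 CPM, with overlapping groups and a log2 fold change of -0.06 (SE 0.23).

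Of 26 hepatocyte transcription factors, 2 fell and 1 rose, and 12 lay lower without overlap against 2 higher, with a median of -0.43. Zfpm1, the partner of GATA factors also called FOG1, fell from 81.4, 63.7 and 70.8 CPM to 24.8, 22.9 and 29.5 CPM (2.8-fold, edgeR adjusted p = 0.0299). Nfix, a nuclear factor I protein, fell from 109.9, 109 and 103 to 56.2, 56.2 and 66.1 CPM. Cebpd, which inflammation induces, was the 1 that rose, from 12.8, 11.7 and 7.92 to 42.8, 70.6 and 34.2 CPM, with HFD + PBS replicate 4 the highest. Ppara was the 1 called among 34 nuclear receptors and coactivators, of which 16 lay lower without overlap and 1 higher. Znrf3, a ubiquitin ligase that removes Wnt receptors from the surface, fell from 21.3, 26 and 20.4 to 10.1, 9.12 and 13.3 CPM, while 34 Wnt and pericentral genes together had a median of -0.16. Pcsk6, a proprotein convertase, fell from 149, 163 and 157 to 68.5, 75.9 and 80.4 CPM (2.08-fold, edgeR adjusted p = 0.0304). Paqr9, of the progestin and adipoQ receptor family, fell from 547, 467 and 396 to 145, 158 and 189 CPM (2.87-fold, edgeR adjusted p = 0.0304). In Pcsk6 the 3 livers of a group lay close together.

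**Figure D3:**
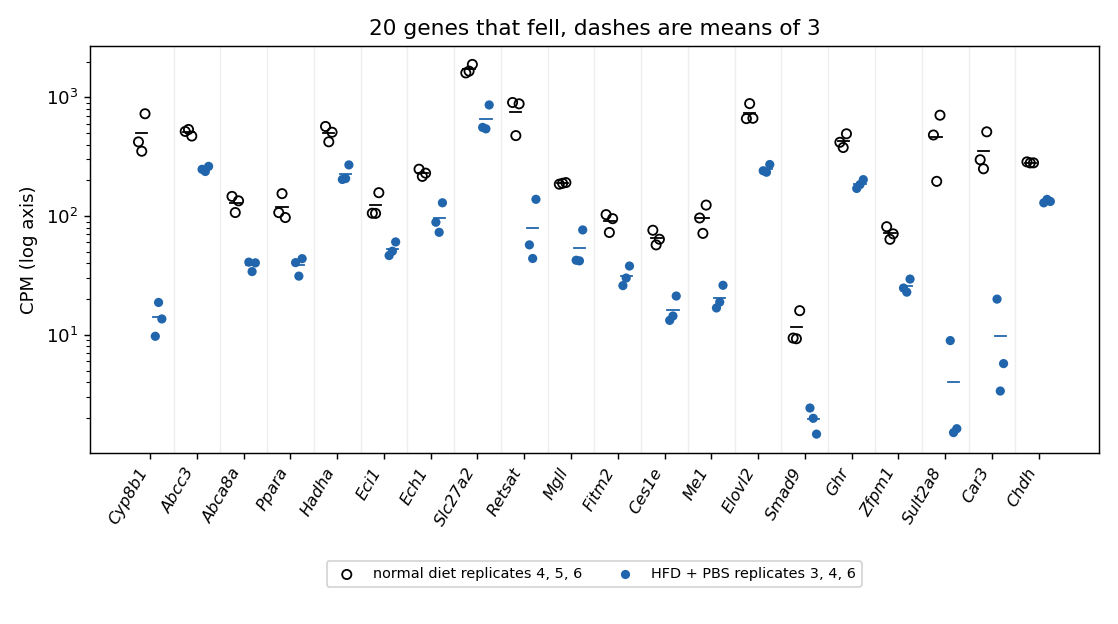
CPM per library on a log axis for 20 genes that fell, with normal diet replicates as open circles and HFD + PBS replicates as filled ones. The groups do not overlap in any of the 20, and in Cyp8b1, Sult2a8 and Car3 they lie far apart.

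Of 15 glucuronosyltransferases tested, 13 were negative and 2 fell. Ugt3a1 went from 90.7, 70.2 and 82.1 CPM to 24.9, 11.3 and 21.8 CPM (4.18-fold, edgeR adjusted p = 0.0355) and Ugt2b34 from 528, 461 and 654 to 267, 245 and 274 CPM (2.09-fold, edgeR adjusted p = 0.0481). Sult2a8, a sulfotransferase of bile acids, fell from 482, 196 and 707 CPM to 8.94, 1.5 and 1.62 CPM (log2 fold change -6.82, SE 1.03, edgeR adjusted p = 0.0498). It was the 1 called of 12 sulfotransferases tested, of which 5 were positive, and the sign of their median (-0.30) changed in 6 of 18 alternatives. Car3, a carbonic anhydrase abundant in liver and fat, fell from 298, 250.2 and 512 to 20, 3.36 and 5.72 CPM (log2 fold change -5.18, SE 0.79, edgeR adjusted p = 0.0476). Beside these, all 16 tested male-biased liver genes were negative, 5 without overlap and 0 called, with a median of -3.19. That median was -3.45, -5.61 and -1.85 without normal diet replicates 4, 5 and 6, -5.72, -5.01 and -4.71 without HFD + PBS replicates 3, 4 and 6, and -5.24 without both libraries that lacked Y-linked reads. Their summed level was 14100, 2391 and 35540 CPM on the normal diet, lowest in replicate 5, and 1872, 2953 and 901 CPM after the high-fat diet, so that it was low in HFD + PBS replicates 3 and 4 with Y-linked reads as well. The summed female-biased genes were at 256, 1395 and 242 CPM and 344, 1348 and 1846 CPM, with overlapping groups. The part of these markers in the results was not tested. Chdh, which makes betaine from choline, had narrow groups, at 286, 280.3 and 281 CPM and 129, 138 and 133 CPM (2.12-fold, edgeR adjusted p = 0.0304). Hykk, the kinase of hydroxylysine breakdown, fell 3.8-fold, from 89.2, 167 and 109 to 29.1, 30.7 and 36.2 CPM.

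RNA of the mitochondrial genome was lower in an uneven way. Of 28 mitochondrially encoded genes tested, 26 were negative, 24 lay lower without overlap and 6 fell, 5 of them tRNAs. The tRNA for cysteine, mt-Tc, fell from 36.2, 44 and 35.8 CPM to 18.1, 16 and 16.1 CPM (2.31-fold, edgeR adjusted p = 0.0301), and that for tyrosine, mt-Ty, from 12.5, 12.8 and 14.9 to 3.65, 1.62 and 2.81 CPM (4.94-fold, edgeR adjusted p = 0.0304). mt-Tl2, mt-Tp and mt-Te fell by 1.43, 1.05 and 1.92 on the log2 scale. The short complex I subunit mt-Nd3 fell from 30.5, 42.2 and 27.7 to 14.4, 13.6 and 14 CPM. The test did not call mt-Co1, which encodes a subunit of complex IV, at 17510, 17529 and 17697 CPM against 14581, 15475 and 13766 CPM, nor mt-Nd1, at 4390.1, 4525 and 3957 against 3600.1, 3669.5 and 3446 CPM, although neither pair of groups overlapped. Mitochondrially encoded genes took 4.36%, 4.50% and 4.38% of counts on the normal diet and 4.11%, 2.92% and 3.50% after the high-fat diet. Nuclear-encoded subunits of the respiratory chain showed no such shift. Complex I (36 genes) had a median log2 fold change of -0.02 with 16 positive and 20 negative, complexes III to V (37 genes) had 0.04, and 0 genes of either list passed the test. The signs of these 2 medians changed with the scaling or the libraries used. mt-Nd3 and the tRNAs are short, and whether reads fit nuclear copies of the mitochondrial genome was not tested.

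Genes of cholesterol synthesis lay on the higher side. All 9 genes from mevalonate formation to squalene and all 11 after squalene were positive, with 6 without overlap in each list. The median log2 fold changes were 1.52 and 1.04. The test called 3 of the first list and 0 of the second. Mvd, which makes isopentenyl diphosphate, rose from 7.47, 6.98 and 4.51 CPM to 45.5, 37.8 and 19.9 CPM (log2 fold change 2.44, SE 0.34, edgeR adjusted p = 0.0373). Pmvk, which supplies its substrate, rose from 14.9, 13.8 and 15.8 to 31.3, 35.7 and 24.3 CPM (log2 fold change 1.03, SE 0.18, edgeR adjusted p = 0.0433). Fdps, the farnesyl diphosphate synthase, rose from 0.83, 1.26 and 1.1 to 9.44, 8.28 and 3.08 CPM (log2 fold change 2.70, SE 0.47, edgeR adjusted p = 0.0433). In each of the 3, HFD + PBS replicate 6 was the lowest of its group and still above every normal diet library. After squalene, Lss, which closes the sterol ring, was measured at 27.1, 28.5 and 19.2 CPM against 118, 92.2 and 44.4 CPM (edgeR adjusted p = 0.0615), and Sqle, the squalene epoxidase, at 43.4, 59.7 and 33.6 CPM against 174, 248 and 82.8 CPM (edgeR adjusted p = 0.0702). Per library, the median member of the first list lay 2.17, 1.96 and 0.56 log2 units above its level on the normal diet in replicates 3, 4 and 6 of HFD + PBS. Srebf2, which encodes SREBP-2, overlapped between the groups at 85.9, 96.6 and 65.3 CPM and 119.7, 122 and 84 CPM.

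The promoters of these genes were searched for short motifs. NF-Y, a factor known to act together with SREBP-2, binds the letters CCAAT. Searched on both strands in RefSeq windows (GRCm38.p6) from 250 bases before to 50 bases after a start, CCAAT was found in 14 of the 15 genes of the 2 sterol lists that had a window (93.3%), against 42.6% of 10599 tested genes. A gene counted if any of its windows matched, and per window the shares were 14 of 18 (77.8%) against 37.3%. A sterol element, searched as TCACNCCAC or CACCCCA on both strands, was found in 2 of the 15 (13.3%) against 10.4% of all, and its letters can overlap CCAAT at the shared CCA. The NF-Y letters were in 39.1% of the 69 genes called higher and 35.5% of the 62 called lower that had a window. These shares are descriptions of letters in the windows. The 250 bases upstream of the start are shown for the 2 called genes with a window and for Lss, 5′ to 3′ in the direction of the gene, with CCAAT or its reverse complement in capitals. Mvd lies on the minus strand (chr8:122443423-122443672), with matches beginning at -60 and -27 from the start, Pmvk on the plus strand (chr3:89454291-89454540), with 1 at -136, and Lss on the plus strand (chr10:76531355-76531604), with 1 at -62. None of the 3 held a sterol element in these letters. Another window of Pmvk (chr3:89459321-89459570), not shown, held 0 CCAAT matches.
Mvd: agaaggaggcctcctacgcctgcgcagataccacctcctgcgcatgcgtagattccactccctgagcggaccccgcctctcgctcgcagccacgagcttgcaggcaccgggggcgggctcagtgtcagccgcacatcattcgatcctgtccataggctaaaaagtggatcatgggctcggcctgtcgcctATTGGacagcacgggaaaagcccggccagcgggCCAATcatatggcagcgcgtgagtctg
Pmvk: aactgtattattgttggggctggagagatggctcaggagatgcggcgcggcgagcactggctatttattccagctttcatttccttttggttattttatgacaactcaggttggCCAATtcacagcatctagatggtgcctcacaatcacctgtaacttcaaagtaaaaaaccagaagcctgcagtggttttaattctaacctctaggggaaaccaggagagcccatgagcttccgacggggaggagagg
Lss: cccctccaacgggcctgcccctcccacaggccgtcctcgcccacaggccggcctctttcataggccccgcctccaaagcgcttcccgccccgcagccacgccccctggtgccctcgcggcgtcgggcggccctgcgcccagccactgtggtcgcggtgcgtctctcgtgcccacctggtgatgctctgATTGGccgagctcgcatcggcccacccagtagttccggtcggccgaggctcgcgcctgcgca

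Receptors and signalling proteins of myeloid cells were among the higher calls. In bulk RNA, more cells of a type and more RNA per cell cannot be told apart, and the same holds for fewer and less. Il1r2, a decoy receptor that traps interleukin-1, rose from 0.639, 0.286 and 0.183 CPM to 11.2, 10.2 and 7.34 CPM (log2 fold change 4.69, SE 0.45, edgeR adjusted p = 0.0286), with all HFD + PBS libraries close together. It (ENSMUSG00000026073, chromosome 1, 40074079 to 40125231, mm10) was the 1 call among 19 genes of the inflammasome and IL-1 family, 10 of which lay higher without overlap and 1 lower. Cd14, the co-receptor for lipopolysaccharide, rose from 9.2, 22.5 and 10.8 to 137, 166 and 66.6 CPM (log2 fold change 3.12, SE 0.47, edgeR adjusted p = 0.0421). Irak3, which dampens Toll-like receptor signals, rose from 4.53, 9.09 and 3.23 to 23.8, 30.7 and 19.8 CPM (log2 fold change 2.13, SE 0.38). Among 25 Toll-like receptor genes those were the 2 called, with 8 higher and 2 lower without overlap. Of the Fc gamma receptors, 2 activating ones rose. Fcgr3 went from 26.8, 32.1 and 23.2 CPM to 92.7, 80.7 and 67 CPM (log2 fold change 1.55, SE 0.19) and Fcgr4 from 27.5, 30.7 and 22.3 to 82.8, 102 and 56.7 CPM (log2 fold change 1.58, SE 0.24).

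Receptors with inhibitory motifs rose beside activating ones. Pirb, an inhibitory receptor for MHC class I, went from 20.8, 25.3 and 17.3 CPM to 64.5, 48.9 and 52 CPM, and Siglece, an inhibitory receptor for sialic acid, from 16, 15.4 and 11.5 to 36.9, 36.1 and 34.4 CPM. In Siglece the livers of each group lay within a few CPM of each other. Cd300lf, a myeloid receptor for lipids, rose from 6.32, 6.46 and 3.96 to 32.3, 27.3 and 23.2 CPM (4.94-fold, edgeR adjusted p = 0.0286). The formyl peptide receptors Fpr1 and Fpr2, which guide neutrophils and monocytes to bacterial and mitochondrial peptides, rose 2.39-fold and 4.95-fold. Fpr2 went from 3.45, 3.15 and 3.17 to 22.9, 11.3 and 14.1 CPM. The adaptor Dok3 rose 3.4-fold, and Ifngr1, the ligand-binding chain of the interferon-gamma receptor, rose 1.91-fold from 35.8, 40.8 and 35.7 CPM to 72, 72 and 70.2 CPM. Of 32 chemokines and receptors tested, 2 rose and 0 fell, and 12 were higher without overlap against 2 lower. Ccl6, a macrophage chemokine, rose from 49.4, 73 and 33.9 to 162, 165 and 154 CPM, and Cxcr4 from 1.85, 3.09 and 2.26 to 28.6, 7.68 and 13.9 CPM, with HFD + PBS replicate 3 the highest.

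Markers of myeloid cells moved with these genes. All 14 neutrophil markers were positive and 11 had no overlap, a median log2 fold change of 4.31 and 1 call, Retnlg, at 9.83, 6.29 and 3.11 CPM against 79.2, 32 and 57.1 CPM. Leaving out normal diet replicate 4 gave a median of 5.49, and leaving out HFD + PBS replicate 3 gave 3.30. Their summed level ran from 99.3 to 2110.0 CPM on the normal diet and from 3565 to 8425 CPM after the high-fat diet. All 15 markers of recruited and lipid-associated macrophages were positive, 10 without overlap, and summed to 319 to 660.4 CPM and 1026 to 1390.0 CPM. Of 14 Kupffer cell markers, 13 were positive and 8 had no overlap on the higher side, with sums of 2698 to 3128 CPM and 3780.0 to 4134 CPM. The part of these cells in the single-gene results was not tested. The resident macrophage genes C1qb and C1qc, subunits of the first complement component, rose 2.13-fold and 2.03-fold. C1qb went from 144, 179 and 164 to 348, 376 and 311 CPM. Ctss, a cathepsin that trims the invariant chain of MHC class II, rose from 129, 185 and 179.6 to 379, 358 and 304 CPM. T and NK cell markers (16 genes) had 0 called and 1 member higher without overlap, a smaller share than the 13.8% of all genes. Their median lay 1.53, -0.33 and 0.38 log2 units from its normal diet mean in replicates 3, 4 and 6 of HFD + PBS. Their median log2 fold change was 0.79 and turned to -0.16 without HFD + PBS replicate 3. B and plasma cell markers had 6 of 12 positive and 0 called, with sums of 610 to 843 CPM and 777 to 1127 CPM. Igkc, the constant gene of the kappa light chain, stood at 218, 184 and 104 CPM against 317, 526 and 178 CPM. Its groups overlapped, with a log2 fold change of 1.02 (edgeR adjusted p = 0.217). In this list 0 genes lay higher without overlap and 3 lower. The 3 were Sdc1, a plasma cell marker also made by hepatocytes, at 320.3, 385 and 304 CPM against 213, 278 and 299 CPM, Ighd, the heavy chain of IgD, at 3.32, 2.4 and 3.6 CPM against 0.0456, 0.18 and 0.918 CPM (edgeR adjusted p = 0.0902), and Pax5, the B cell lineage factor, at 1.85, 2.17 and 1.34 CPM against 0.137, 0.12 and 1.24 CPM (edgeR adjusted p = 0.231).

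Several of the higher genes handle lipid. Cd9, a tetraspanin of lipid-associated macrophages, rose from 28, 24 and 24.5 CPM to 66.4, 95.7 and 67.6 CPM (log2 fold change 1.59, SE 0.19, edgeR adjusted p = 0.0301). Lpl, the lipase that frees fatty acids from lipoproteins, rose from 113, 134 and 84.9 to 326, 366 and 283 CPM (log2 fold change 1.56, SE 0.21, edgeR adjusted p = 0.0304). Spp1, the secreted protein osteopontin, rose from 49.6, 63.5 and 40.8 to 233, 135 and 127 CPM (3.22-fold), with HFD + PBS replicate 3 the highest. These were the 3 called members of the lipid-associated macrophage list. Fabp4, a fatty acid binding protein of macrophages, endothelium and fat, rose from 8.43, 5.95 and 6.83 to 19.5, 36.7 and 20 CPM, with replicate 4 the highest. In the eicosanoid list 2 of 20 genes rose and 1, Ephx2, fell. Alox5ap, which presents arachidonic acid to 5-lipoxygenase, rose from 8.05, 5.2 and 5.97 to 34.2, 15.2 and 24.5 CPM (3.85-fold), and Pla2g7, which breaks down platelet-activating factor, from 21.9, 20.5 and 10.5 to 55.3, 78.1 and 47.4 CPM (3.42-fold). Sptlc2, a subunit of the first enzyme of sphingolipid synthesis, rose from 34.9, 37.1 and 31.2 to 74.2, 79 and 58.6 CPM and was the 1 call among 25 sphingolipid genes.

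Of 23 immediate early genes tested, 21 were positive, 7 without overlap, and 2 rose, Klf2 and Myc, while 0 fell. Klf2, a flow-responsive factor of endothelium and myeloid cells, went from 10.2, 12.8 and 14.8 CPM to 26.8, 28.7 and 26.4 CPM, and Myc from 6.26, 4.97 and 7.74 to 13.5, 13.6 and 15.2 CPM. Jdp2, of the AP-1 family, rose from 2.62, 3.03 and 2.44 to 12.3, 9.78 and 9.28 CPM (3.87-fold, edgeR adjusted p = 0.0301). Zc3h12a, the RNase that cuts inflammatory transcripts, rose from 6.64, 6.4 and 7.25 to 24.3, 16.9 and 15.4 CPM (2.79-fold, edgeR adjusted p = 0.0373). The interferon-inducible membrane proteins Plscr1 and Ifitm1 rose, Plscr1 from 16.3, 19.4 and 15.5 to 61.3, 51 and 39 CPM and Ifitm1 from 11, 12.8 and 7.56 to 32.5, 33.7 and 27.9 CPM. The interferon response list as a whole did not: 20 of its 23 genes were negative, 0 were called, and its median per library was 0.09, -1.80 and -0.28 log2 units in HFD + PBS replicates 3, 4 and 6, lowest in replicate 4.

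Genes of vessels, matrix and cell shape supplied further calls. Thbd, thrombomodulin, rose from 9.52, 8.63 and 7.38 CPM to 19.6, 31.7 and 20.4 CPM and was the 1 call among 34 coagulation genes. Adm, the vasodilator adrenomedullin, rose from 2.87, 2.92 and 3.41 to 7.3, 10.7 and 7.18 CPM. Ccn2, a matrix-associated growth factor and YAP target, rose from 9.77, 9.61 and 5.55 to 28.9, 35.1 and 20.9 CPM (3.4-fold, edgeR adjusted p = 0.0407), while 17 YAP targets had a median of 0.22. S100a6, a calcium-binding protein, rose from 3.96, 3.32 and 3.29 to 31.1, 10.8 and 20.5 CPM (5.91-fold, edgeR adjusted p = 0.0403). It was the 1 called of 35 keratin, actin, tubulin and annexin genes and their partners, 32 of which were positive and 19 higher without overlap, against 0 lower. Fibrillar collagens and matrix remodelling (27 genes) had 22 positive and 0 called. Of the 27, 2 lay higher without overlap, a smaller share than the 13.8% of all genes. Their median was 0.35 with all libraries and -0.13 without HFD + PBS replicate 3. Cholangiocyte markers summed to 64.3 to 102 CPM and 179.5 to 335 CPM, with 8 of 9 positive, 5 without overlap and Spp1, shared with the macrophage list, as the 1 called. Spp1 was most of that sum in each library, at 49.6, 63.5 and 40.8 CPM against 233, 135 and 127 CPM. Stellate cell and fibroblast markers overlapped, at 727 to 1038 CPM and 908 to 1151 CPM.

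A few called genes went from near absence to a clear level. Lrtm2, a leucine-rich repeat membrane protein, stood at 0.0639, 0.686 and 0.732 CPM on the normal diet and 22.5, 9.9 and 14.8 CPM after the high-fat diet, and Myom3, a sarcomere protein of the myomesin family, at 1.28, 0.457 and 0.671 and 7.43, 11.6 and 6.75 CPM. In both, the 3 normal diet libraries lay near or under 1 CPM, where fold changes are imprecise. Of 14 skeletal muscle markers, 7 had 0 counts in all 6 libraries, Ckm, Myh1, Myh2, Myh4, Mb, Myl1 and Tnnc2. Of 10 adipocyte markers, Adipoq and Lep, defining genes of fat cells, had 0 counts in all 6 libraries, and 4 passed the filter on low counts. Fabp4, which rose, and Car3, which fell, belong to this list, and its sum ran from 266 to 529 CPM on the normal diet and from 37.7 to 49.7 CPM after the high-fat diet. The lower sum was mainly that of Car3, which is abundant in liver as well as fat. Car3 held 298, 250 and 512 CPM of it on the normal diet and 20, 3.36 and 5.72 CPM after the high-fat diet. Of 12 pancreatic acinar markers, 8 had 0 counts. Ms4a8a, a membrane protein induced in some macrophages, rose from 5.3, 7.26 and 5.49 CPM to 18.5, 35.4 and 21.3 CPM. Ear2, an RNase of the eosinophil-associated family with close copies in the genome, rose from 8.43, 9.21 and 9.21 to 24.8, 23.4 and 21.4 CPM. Spon1, a matrix protein, rose from 3.38, 3.26 and 2.99 to 13.9, 10.8 and 9.23 CPM. In these last 3 genes the normal diet livers differed by a few CPM at most.

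**Figure D4:**
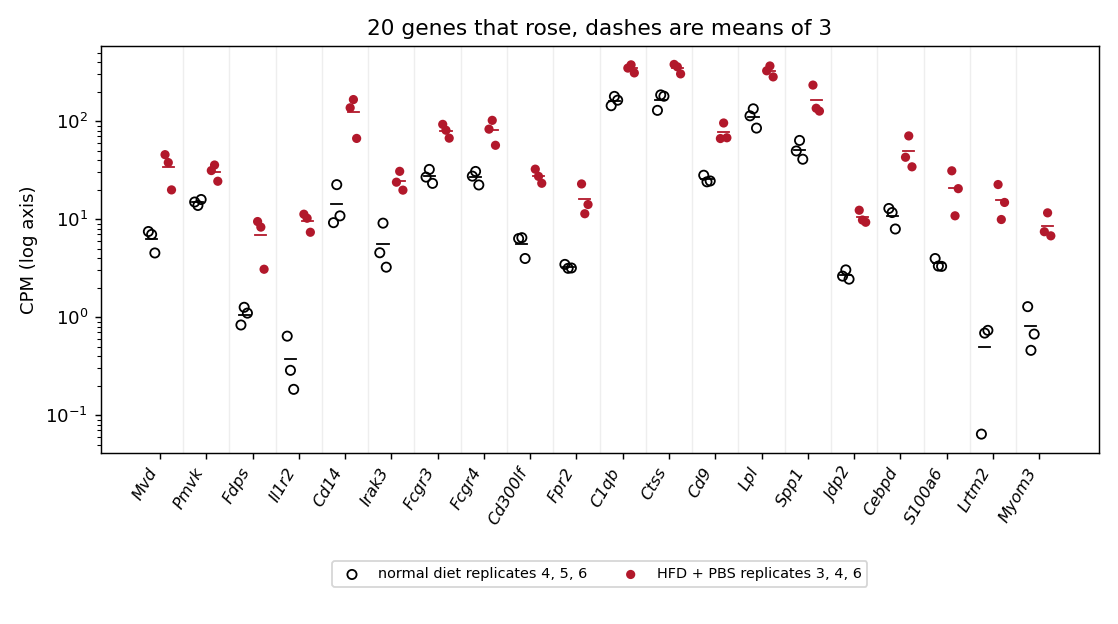
CPM per library on a log axis for 20 genes that rose, with normal diet replicates as open circles and HFD + PBS replicates as filled ones. The groups do not overlap in any of the 20, and in Lrtm2, Il1r2 and Myom3 they lie far apart.

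Cytosolic ribosomal protein genes gave a small shift that ran through the whole list. All 77 tested members were positive, 49 lay higher without overlap against 0 lower, and the median log2 fold change was 0.43. It kept its sign under all 18 alternatives, between 0.32 and 0.56. Rpl39 was the 1 that rose, from 39.3, 37.1 and 49.9 CPM to 78.1, 89.8 and 76.4 CPM (log2 fold change 0.95, SE 0.17, edgeR adjusted p = 0.045). The members summed to 11860, 10890 and 13340 CPM on the normal diet and 14610, 18350 and 14900 CPM after the high-fat diet, highest in replicate 4. Ribosomal protein genes have many processed copies in the genome, and reads shared with them could have been counted elsewhere or dropped. Mitochondrial ribosome genes (74 tested) lay at a median of 0.06, and constitutive proteasome genes at -0.18 with 31 of 34 negative and 0 called. The 17 heat shock genes had a median of -0.30, with 5 lower without overlap, 0 higher and 0 called.

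In other lists the HFD + PBS livers differed among themselves. Mitosis genes were all positive (25 of 25, 0 called), yet their median per library was 3.41, -0.12 and 2.09 log2 units from its normal diet mean in replicates 3, 4 and 6 of HFD + PBS, so that replicate 4 lay at the normal diet level. DNA replication genes showed the same order, at 1.69, -0.03 and 0.69. Genes of gluconeogenesis and the fasting response had 6 of 20 lower without overlap, 0 higher and 0 called. Their median was -0.20 and turned to 0.08 without replicate 3. G6pc, which releases glucose, was measured at 431, 223 and 828 CPM and 51.2, 187 and 147 CPM without overlap (edgeR adjusted p = 0.148), and Pck1 overlapped at 4128, 3314 and 5006 CPM and 1104, 5219 and 3604 CPM, with replicate 3 far under the other two. Genes of the urea cycle and ammonia handling had 6 of 18 lower without overlap, 0 higher and 0 called, with a median of -0.18, which turned to 0.02 without replicate 3, and amino acid breakdown had -0.30, with 11 of 40 genes lower without overlap, 1 higher and 0 called. The clock genes Arntl and Dbp overlapped between the groups. Dbp stood at 0.447, 17.6 and 0.366 CPM on the normal diet, where replicate 5 was far above the other two, and at 2.87, 2.1 and 1.89 CPM after the high-fat diet. The sources used here do not give the hour at which each liver was taken.

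**Figure D5:**
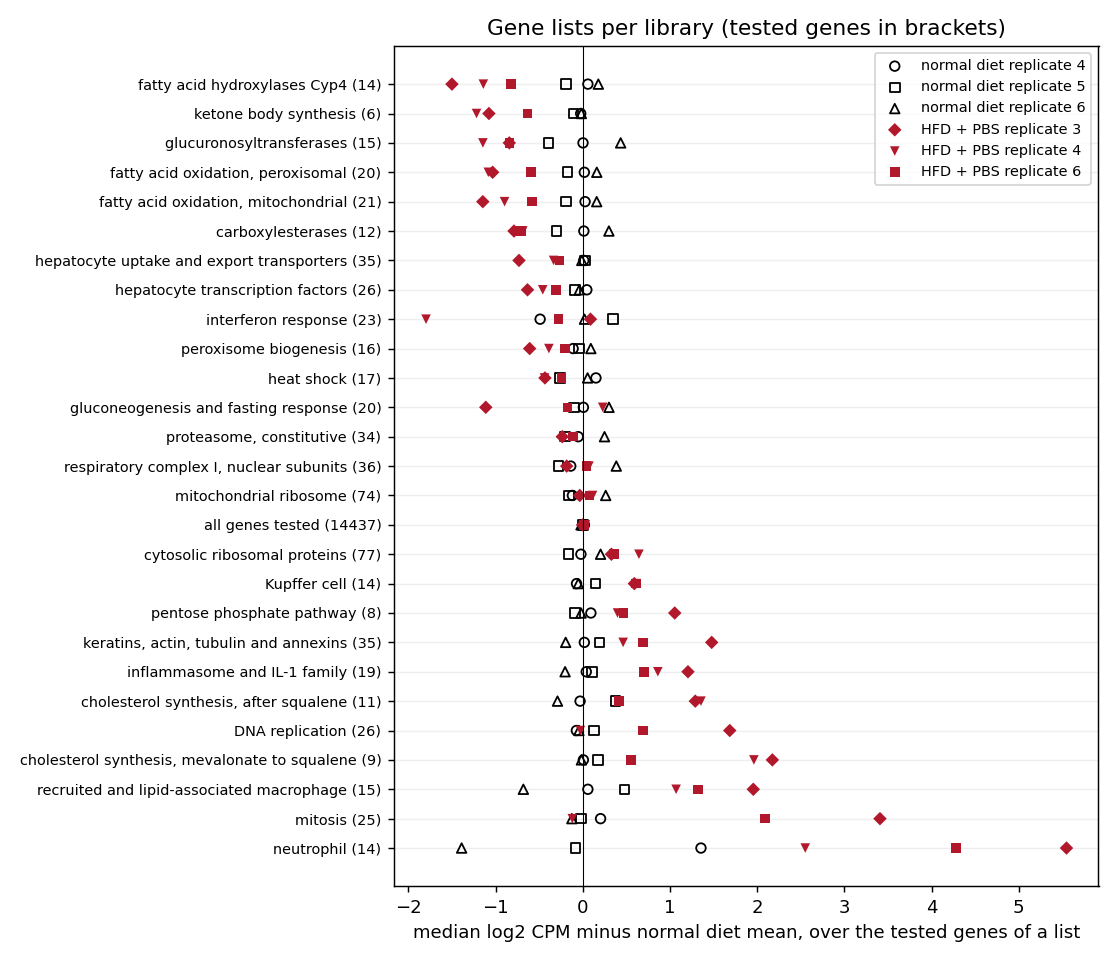
For 26 gene lists and all genes tested, the median over tested members of log2 CPM minus that gene's mean over the normal diet libraries, with 1 point per library (open, normal diet replicates 4, 5 and 6, and filled, HFD + PBS replicates 3, 4 and 6). Fatty acid oxidation lies at -1.15 to -0.58 and the mevalonate list at 0.56 to 2.17 in the HFD + PBS libraries, while mitosis runs from -0.12 to 3.41 among them.

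Gene lists of other liver functions stayed near the median of all genes or held few calls. Drug-metabolising P450 genes had 0 of 38 called, with 8 lower and 1 higher without overlap and a median of -0.20. NRF2 targets and the glutathione system (35 genes, 0 called) had a median of -0.02, with Gstm3, a glutathione transferase, at 5.88, 12.1 and 15.4 CPM against 301, 69.9 and 94.6 CPM (edgeR adjusted p = 0.0627) and Cat, catalase, at 2584, 1986 and 3311 CPM against 1095, 1020.4 and 1157 CPM (edgeR adjusted p = 0.0595). These 2 moved in opposite directions without overlap and without passing the test. The integrated stress response had 4 of 20 genes higher without overlap, 0 lower and 0 called. Its median was 0.31, and 0.21 to 0.43 under the alternatives. Ddit4, an inhibitor of mTORC1, was measured at 3.26, 4.0 and 4.69 CPM and 25.4, 220.3 and 52.3 CPM, highest in HFD + PBS replicate 4. Of 22 p53 targets, 6 lay higher without overlap and 1 lower, where all genes had 13.8% and 14.2%, and 0 were called. Their median was 0.38, and 0.26 to 0.42 under the alternatives. Cdkn1a, the cell cycle inhibitor p21, was at 17.2, 7.38 and 11.7 CPM and 27.6, 46.3 and 40.2 CPM. Endoplasmic reticulum chaperones had a median of 0.01, insulin receptor signalling 0.04, iron handling -0.03 and sterol sensing, uptake and efflux 0.08, each with 0 called, and the signs of these 4 medians depended on the alternative.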

How the data were processed

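Liver RNA libraries were made with a NEBNext Ultra kit from 1 µg of RNA per liver, per the labels' protocols. The deposited values are raw counts per Ensembl gene ID made by the authors, not normalised. The submitters' processing notes name mm10 and Bowtie 0.12.2. The counter, annotation and strand setting were not given in the sources used here, which means that antisense and overlapping genes may share reads. Of 54532 IDs, 54495 were named from GENCODE M21 (GRCm38).

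edgeR 4.0.16 in R 4.3.3 was run on the 6 libraries with TMM factors, filterByExpr (minimum count 10, minimum total 15), robust glmQLFit and the two-sided glmQLFTest. P-values of 14437 genes were adjusted by Benjamini-Hochberg and called under 0.05. The biological coefficient of variation was 0.296. The SE was computed by dividing the log2 fold change without shrinkage by the root of F. The third group, which received another treatment and holds the library with high Apoe counts, was left out of the main test. Earlier results of these data were known when this was chosen. Alternatives were DESeq2 1.42.0, limma-voom (limma 3.58.1), other factors and filters, all 9 libraries, the libraries at odds with their labels left out or given a term, no mitochondrial genes, a replicate block and each library left out. An exact test of 3 against 3 cannot go below 0.1. The workflow was tested on simulated data.

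Genes named are the 25 called with the smallest p in each direction (at least 1 CPM on average, no overlap), up to 6 called members of each list described or else the 3 with the smallest p, called members of families described, and 18 genes named whatever their values. Not every gene the rule allows is described, and 2 are not reported here. The members, lists and rules were chosen with earlier results of these data known, and lists were described by counts and medians without a set test.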

Additional observations from a re-analysis of the deposited data

Results flagged for a closer look

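Apoe counts far above those of the compared libraries appeared in a library outside the comparison. The library labelled HFD + IgG1 replicate 5 held 235888 Apoe counts, where the 6 libraries compared held 225 to 1141. The report's comparison does not use that library, and it enters only in the alternative with all 9 libraries.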

How the results depend on the processing

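Against 184 genes called, DESeq2 called 1570, edgeR without a filter on low counts 1006, the fit over all 9 libraries 0, the fit without the 2 libraries lacking Y-linked reads 27 and the fit with a term for Y-linked reads 5. Leaving out 1 library gave 0 to 575, with none left when normal diet replicate 4 was dropped and 575 (430 higher, 145 lower) when HFD + PBS replicate 4 was. With 2 libraries in an arm, these fits share 1 spread over both groups. The replicate block, which ties replicates 4 and 6 across groups, called 766. Its diet effect rests on those 2 pairs, since normal diet replicate 5 and HFD + PBS replicate 3 have no partner. The libraries numbered 6 differ in Y-linked counts, 2837 on the normal diet against 0. Replicate numbers were not taken as pairs in the main test, since the deviations of same-numbered libraries correlated at 0.01 and -0.01. The remaining alternatives (RLE and upper-quartile factors, limma-voom, 1 CPM in 3 libraries, robust = FALSE, no mitochondrially encoded genes) gave 142 to 197. The cause of these differences was not tested.

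No called gene changed sign, for which groups without overlap leave little room. Over the 89 called genes named in the text and their alternatives, the call held in 949 values and was lost in 647. Reversed directions were found in genes that were not called. Hamp turned to 0.018 and Igf1 to 0.020 with the replicate block. With 1 library left out, Igf1 ran from -0.23 to 0.11 and was positive without normal diet replicate 6 or HFD + PBS replicate 3. Pck1 ran from -0.82 to 0.10, positive without HFD + PBS replicate 3. Dbp turned to 0.55 with limma-voom, 2.59 without the 2 libraries lacking Y-linked reads, 0.65 with a term for Y-linked reads, and 2.28 with the replicate block, and with 1 library left out it ran from -1.98 to 2.47, positive without normal diet replicate 5. Depth limits genes near or under 1 CPM, and the spread between 3 animals limits the rest.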

Other observations

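Gene families given by a shared symbol stem, with at least 10 members tested, were also counted, against a background of 0.637% of all genes called in each direction. The Abca transporters had 2 of 10 members lower (20.0%), Abca8a and Abca8b, with a median log2 fold change of 0.01 over the family and 5 of the 10 members positive. The Ces esterases had 2 of 12 lower (16.7%) and the Ugt transferases 2 of 16 (12.5%). On the higher side the Clec family of lectin-like receptors had 3 of 21 called (14.3%), with 19 positive and a median of 0.69. Its called members, named here after their values were seen, were Clec4d (0.766, 0.572 and 0.244 CPM on the normal diet and 4.42, 3.66 and 3.67 CPM after the high-fat diet), Clec4a2 (4.02, 4.97 and 3.17 and 28.8, 13.4 and 12 CPM) and Clec4a1 (6.96, 8.58 and 9.81 and 20.9, 20.6 and 14.6 CPM), all myeloid receptors.

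Of 334 zinc finger genes with the stem Zfp, 52 (15.6%) lay lower without overlap, near the 14.2% of all genes, and 11 (3.29%) higher, against 13.8% of all genes, with a median of -0.14 and 1 called. Of 673 long non-coding RNAs, 103 (15.3%) lay lower without overlap and 50 (7.43%) higher, with a median of -0.21, and 5 called lower and 1 higher. Immunoglobulin kappa variable genes (Igkv) had 47 of 50 positive, 14 higher and 0 lower without overlap, a median of 1.16 and 1 called. Heavy chain variable genes (Ighv) had 33 of 35 positive, 4 higher (11.4%) and 0 lower without overlap, a median of 1.065 and 0 called. The B and plasma cell markers had 0 of 12 higher and 3 lower without overlap, and 6 of the 12 were positive, Igkc among them. These variable genes are close copies of each other, and their counts may be shared. Without the 2 libraries that lacked Y-linked reads, the called genes also included Csad, which makes taurine for bile acid conjugation, at 239.7, 53.9 and 362 CPM against 31.7, 32.1 and 77.2 CPM over all 6 libraries (log2 fold change -3.25 without the 2 libraries and -2.22 with them).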
